A study of Homo sapiens with 8 samples.

Results

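The NF-kB subunits and feedback inhibitors described here were 10 genes, found in the deposited count table by their symbols: NFKB1, NFKB2, RELA, RELB, REL, NFKBIA, NFKBIE, NFKBIZ, TNFAIP3 and BIRC3. They were 10 of 61517 genes listed, and all 10 were among the 15554 genes whose counts were high enough to be tested. The samples were KYSE150 cells, a line established from a human esophageal squamous cell carcinoma, and poly(A)-selected RNA was sequenced from 8 libraries in 4 groups of 2. The first group was kept in normoxia and the other 3 groups in hypoxia. Of the hypoxic groups, 1 had no added compound, 1 had sodium oxamate, which inhibits lactate dehydrogenase, the enzyme that interconverts pyruvate and lactate, and 1 had oxamate together with sodium lactate, written NALA in the labels. All libraries came from this 1 cell line. Doses, oxygen levels and exposure times were not given in the sources used here, and neither compound was applied in normoxia. Whether both libraries of a group were grown as separate cultures is not stated, and the p-values reflect only library-to-library spread, possibly technical.

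NF-kB is a family of transcription factors that act as dimers of 5 subunits sharing a Rel homology domain. RELA, RELB and REL carry a transactivation domain, while NFKB1 and NFKB2 encode precursors that are processed to DNA-binding subunits without one. In unstimulated cells IkB proteins hold the dimers in the cytoplasm, until signals from cytokine and innate immune receptors lead to IkB kinase activity and IkB breakdown. Several of the brakes, NFKBIA and TNFAIP3 among them, are themselves classical NF-kB target genes, and in squamous epithelia the pathway is known for its part in inflammation, survival and differentiation.

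Promoter sequence was compared first, because the genes are known as targets of the factor they build or restrain. RefSeq promoter windows (GRCh38.p14, from 250 bases before to 50 bases after an annotated start) existed for 8 of the 10 genes, with 13 windows in all, and not for RELB and NFKBIE. The NF-kB consensus, a motif of 10 bases searched on both strands, was present in 9 of these 13 windows (69.2%), against 11.3% of all 35116 windows of the same length. By gene, 7 of the 8 held it in at least 1 window, against 13.3% of 27305 genes with a window. RELA was the exception, with no match in its 2 windows. A match describes letters in a window and is not a site of measured binding. The following stretches show, for each of the 7 genes, the most upstream match of its first window that held one, read 5′ to 3′ on the gene's strand with the 10 matched bases in capitals. For TNFAIP3 both matches are shown, since they lie close together.
NFKB1 (chr4:102501300-102501329, plus strand): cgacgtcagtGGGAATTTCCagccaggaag
NFKB2 (chr10:102394461-102394490, plus strand): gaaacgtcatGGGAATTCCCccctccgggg
REL (chr2:60881517-60881546, plus strand): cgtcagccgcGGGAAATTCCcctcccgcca
NFKBIA (chr14:35404811-35404840, minus strand): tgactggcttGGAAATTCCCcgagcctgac
NFKBIZ (chr3:101827757-101827786, plus strand): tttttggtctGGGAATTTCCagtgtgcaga
TNFAIP3, upstream match (chr6:137867182-137867211, plus strand): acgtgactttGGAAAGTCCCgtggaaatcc
TNFAIP3, downstream match (chr6:137867194-137867223, plus strand): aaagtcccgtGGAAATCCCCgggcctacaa
BIRC3 (chr11:102317275-102317304, plus strand): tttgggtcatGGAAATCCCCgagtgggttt

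The matched letters of NFKB1 and NFKBIZ were identical, and on the opposite strand NFKBIA also read GGGAATTTCC, as did REL in a second match overlapping the one shown. Across the 4 groups the centred log2 group means of these 4 genes lay from 0.89 units (REL and NFKBIA) to 2.15 units (REL and NFKBIZ) apart. The match began 49 bases before the start in NFKB1, 47 in REL, 81 in NFKBIA and 223 in NFKBIZ. In TNFAIP3 the 2 matches began 67 and 55 bases before the start. Of other pathway genes with a window, 13 of 25 textbook NF-kB targets held the consensus (52%), as did 7 of 15 other brakes (46.7%). It was found for 2 of 10 genes of the ubiquitin machinery (20%), 3 of 22 kinases and adaptors (13.6%) and 0 of 12 receptors.

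Total counts ran from 21845676 to 29406061 per library. Levels are given as CPM, the count of a gene relative to the library's scaled total, after TMM scaling, with scaling factors from 0.879 to 1.15, and changes as log2 fold changes ± standard error from edgeR's quasi-likelihood test over all tested genes, called at a Benjamini-Hochberg adjusted p under 0.05. All 10 squamous epithelial markers were detected in every library, with KRT5 the highest. The 10 leukocyte markers summed to 2.57 to 7.54 CPM of the total. CSF1R was the highest of them in every library, at 2.24 to 6.13 CPM. CD3E and ITGAM were also at 0 in no library, while CD3D and MS4A1 were among those at 0 in every library. The 10 fibroblast and endothelial markers summed to 1.33 to 11.1 CPM. COL1A1 was the highest of them in every library, at 0.646 to 8.58 CPM. CDH5 (0.294 to 1.31 CPM) and VWF (0.0458 to 1.11 CPM) were also at 0 in no library. COL3A1, DCN and KDR were at 0 in every library. Both sums were highest in the hypoxic libraries without a compound, at 7.32 and 7.54 and at 11.1 and 10.7 CPM, and their part in the results was not tested. In bulk RNA a lower level per cell and fewer cells expressing a gene cannot be told apart.

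**Figure D1:**
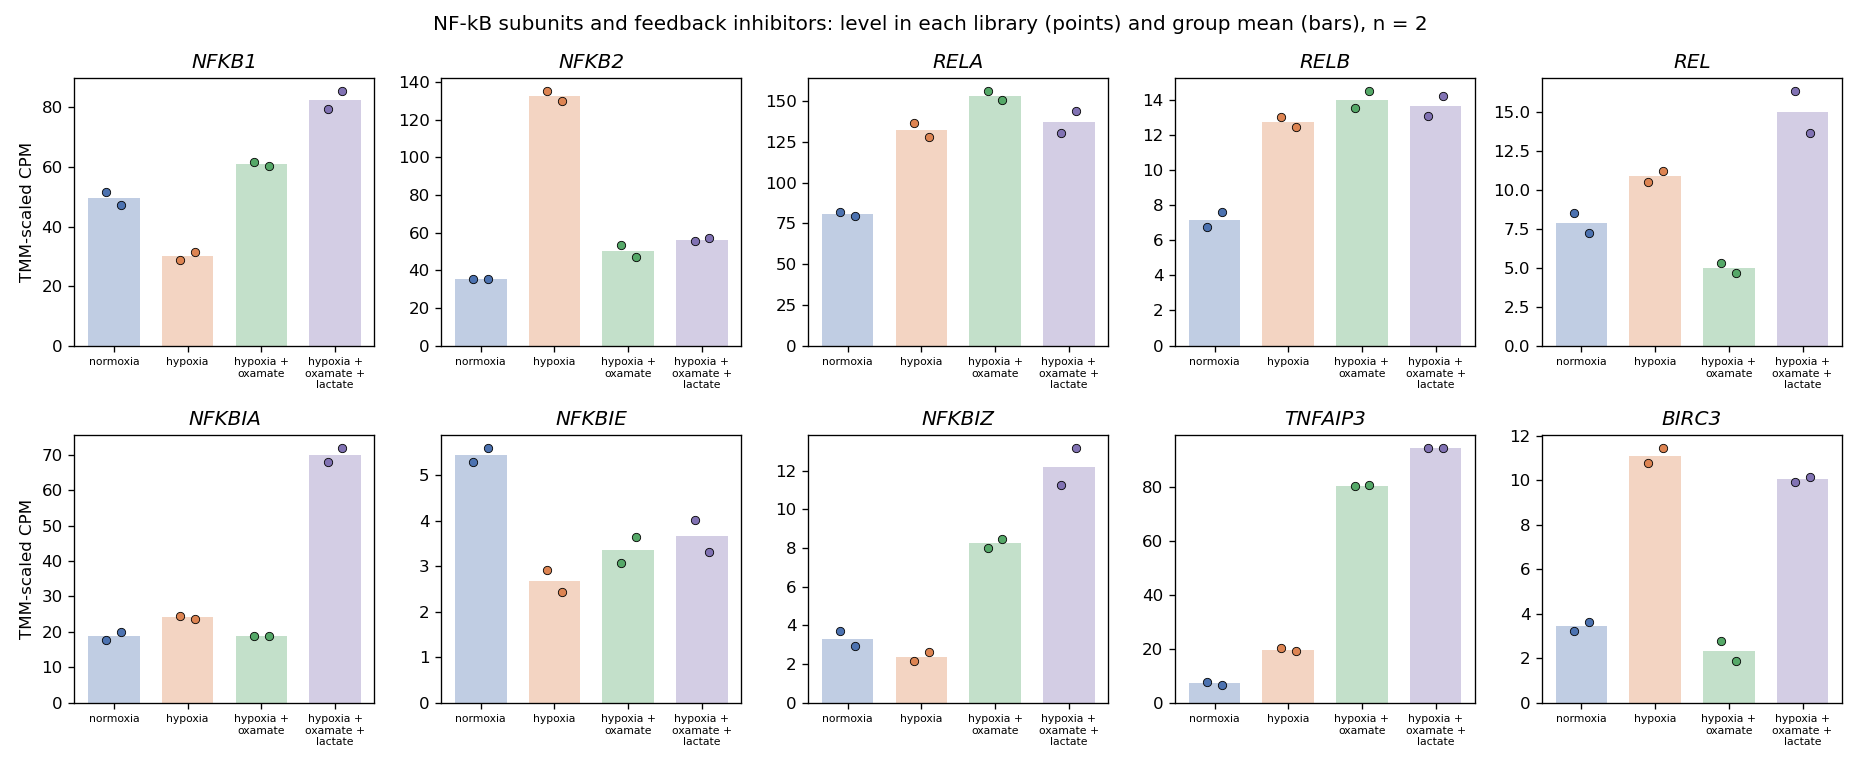
TMM-scaled CPM (vertical axes, each starting at 0 and with its own range) of the 10 genes in the 4 groups; points are the 2 libraries of a group and bars their mean. NFKB2 stood highest in hypoxia, NFKBIA with oxamate and lactate, and TNFAIP3 in both oxamate groups, while BIRC3 was high in hypoxia and with lactate and low in normoxia and with oxamate alone.

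All 10 genes were called different in hypoxia, but not in 1 direction. NFKB2, BIRC3 and TNFAIP3 rose more than 2-fold, RELB, RELA, REL and NFKBIA rose less, and NFKBIE, NFKB1 and NFKBIZ fell. Thus 7 of 10 were called higher, where 36.7% of all tested genes were called higher, and 3 were called lower, where 36.8% were. With upper-quartile scaling NFKBIZ lost its call, which left 7 higher and 2 lower. All tested genes then divided into 6438 higher and 5037 lower. At 2-fold or more, 3 were higher (15.6% of all tested genes) and 1 was lower (13.1%). The median log2 fold change of the 10 genes was 0.59, beside 0.02 over all tested genes.

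Oxamate in hypoxia divided the 10 genes evenly. TNFAIP3, NFKBIZ, NFKB1 and RELA rose, and BIRC3, NFKB2, REL and NFKBIA fell, so that 4 were called higher (35.7% of all tested genes) and 4 lower (44.8%). RELB and NFKBIE were not called. At 2-fold or more, 3 were higher (14.3% of all tested genes) and 3 lower (27.5%). The median of the 10 was 0.17, beside -0.20 over all tested genes.

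Adding lactate to oxamate was followed mostly by higher levels. BIRC3, NFKBIA, REL, NFKBIZ, NFKB1, TNFAIP3 and NFKB2 rose, RELA fell, and RELB and NFKBIE were not called. The 7 genes called higher compare with 33.2% of all tested genes, and the 1 called lower with 31.7%. At 2-fold or more, 3 genes were higher (14.7% of all tested genes), while RELA fell by 0.16 on the log2 scale, short of the 2-fold lower calls made for 4.49% of all tested genes. The median of the 10 was 0.33, beside -0.02. With upper-quartile scaling, which shifted the median of all genes to -0.21, 5 of the 10 were higher and 2 lower, and all tested genes divided into 4150 higher and 6340 lower in place of 5160 and 4927. Without the first oxamate and lactate library, 0 of the 10 were called lower. The hypoxic libraries serve in both the hypoxia and the oxamate comparison, and the oxamate libraries in both the oxamate and the lactate comparison, so opposite signs in neighbouring comparisons are partly built in.

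**Figure D2:**
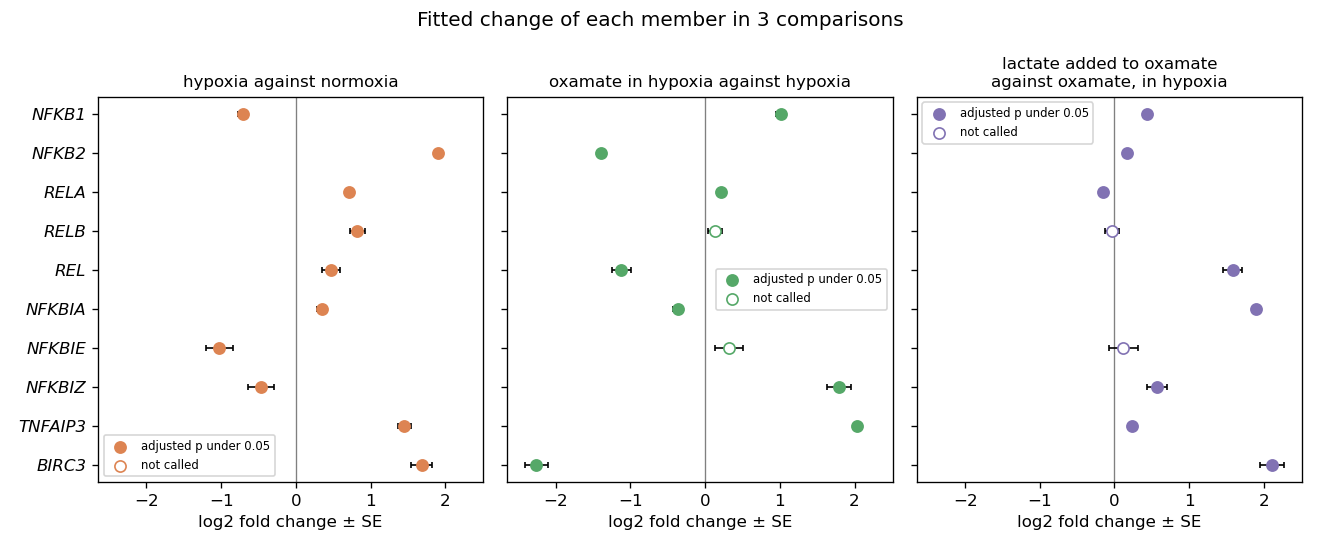
Log2 fold change ± standard error (horizontal axes) of each gene in the 3 comparisons; filled points are called and open points are not. BIRC3 lay at 1.69, -2.26 and 2.12, and TNFAIP3 lay above 0 in all 3 panels.

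Against hypoxia without a compound, the group with oxamate and lactate had 7 of 10 genes called in either direction, where 78.6% of all tested genes were. RELA, RELB and BIRC3 were not called in that comparison. Against normoxia, 9 of 10 were called with oxamate (72% of all tested genes), the exception being NFKBIA, and 10 of 10 with oxamate and lactate (72.7%). Over only 10 genes these shares are coarse, and their differences from those of all tested genes were not tested.

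Among the subunits, NFKB2 had the largest response to hypoxia. It encodes the precursor of the subunit used in noncanonical NF-kB signalling, where it pairs with RELB, and lies at chr10:102394110-102402529 on the plus strand. It was at 35.2 and 35.4 CPM in normoxia, 135 and 129.7 under hypoxia, 53.2 and 47.2 with oxamate, and 55.6 and 57.1 with oxamate and lactate. Both hypoxic libraries stood far above the other 6, and no group overlapped another. The rise in hypoxia was 1.91 ± 0.052 (adjusted p = 8.40e-19), or 3.75-fold. With oxamate it fell by 1.40 ± 0.050 (adjusted p = 6.50e-17), to a level still 1.42-fold that of normoxia (adjusted p = 4.20e-08). The difference between lactate and oxamate alone was small, at 0.17 ± 0.056 (adjusted p = 0.0121). That call was lost with DESeq2 (0.11, adjusted p = 0.212), with RLE size factors (0.11, adjusted p = 0.0892) and with the stricter count filter (0.049, adjusted p = 0.417), and the value was -0.014 without the second oxamate library and -0.025 with upper-quartile scaling.

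NFKB1, at chr4:102501329-102617302 on the plus strand, moved the other way in hypoxia. Its product is the precursor of the partner of RELA in the most common NF-kB dimer. It was at 51.7 and 47.3 CPM in normoxia, 28.9 and 31.6 under hypoxia, 61.6 and 60.2 with oxamate, and 79.5 and 85.5 with oxamate and lactate. The hypoxic libraries were the lowest and those with lactate the highest, with no overlap between any groups. The fall in hypoxia was 1.63-fold (log2 -0.71 ± 0.060, adjusted p = 4.62e-10). With oxamate it rose 2.02-fold (1.01 ± 0.060, adjusted p = 5.26e-13), and with lactate by a further 0.44 ± 0.054 (adjusted p = 2.47e-07). The level with oxamate was 1.23-fold that of normoxia (adjusted p = 4.84e-05), so all 4 neighbouring levels of NFKB1 differed beyond their spread.

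RELA encodes the main transactivating subunit of canonical signalling and lies at chr11:65653596-65663094 on the minus strand. It was at 81.7 and 79.8 CPM in normoxia, 136 and 128 under hypoxia, 156 and 151 with oxamate, and 130.2 and 144 with oxamate and lactate. Normoxia was the lowest group and did not overlap the others, while the hypoxic libraries overlapped those with lactate. RELA rose in hypoxia by 0.71 ± 0.047 (adjusted p = 9.79e-12), or 1.64-fold. It rose again with oxamate, by 0.21 ± 0.045 (adjusted p = 0.000202). With lactate it fell by 0.16 ± 0.046 (adjusted p = 0.00435), a call lost without the first oxamate and lactate library (-0.09, adjusted p = 0.0613). The levels in hypoxia and with oxamate and lactate were not called different (0.05 ± 0.046, adjusted p = 0.286), but with upper-quartile scaling that difference was -0.20 and called (adjusted p = 0.000305).

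RELB, whose product partners mostly with that of NFKB2, lies at chr19:45001430-45038198 on the plus strand. It was at 6.73 and 7.62 CPM in normoxia, 13.0 and 12.5 under hypoxia, 13.5 and 14.5 with oxamate, and 13.1 and 14.2 with oxamate and lactate. Normoxia stood below the 3 hypoxic groups, whose libraries lay within a narrow band. RELB rose 1.77-fold in hypoxia (0.82 ± 0.10, adjusted p = 2.05e-07). Neither later step was called, with 0.13 ± 0.095 for oxamate (adjusted p = 0.195) and -0.03 ± 0.097 for lactate (adjusted p = 0.787). The oxamate difference was called without the first oxamate library (0.29, adjusted p = 0.0297), in the fit of hypoxia and oxamate alone (0.24, adjusted p = 0.0201) and with RLE size factors (0.22, adjusted p = 0.0405), and the lactate difference was called with upper-quartile scaling (-0.22, adjusted p = 0.0465). By the distance between centred group means over the 4 groups, RELA and RELB were the closest pair among the 10 genes, at 0.13 log2 units. RELB and NFKB2 lay 1.18 apart.

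REL, the subunit best known from lymphocytes, lies at chr2:60881521-60931610 on the plus strand. It was at 8.52 and 7.21 CPM in normoxia, 10.5 and 11.2 under hypoxia, 5.30 and 4.65 with oxamate, and 16.3 and 13.7 with oxamate and lactate. The groups did not overlap, with oxamate lowest and lactate highest. REL rose in hypoxia by 0.47 ± 0.12 (adjusted p = 0.00113). It fell with oxamate by 1.12 ± 0.13 (adjusted p = 5.12e-08) and rose 2.99-fold with lactate (1.58 ± 0.13, adjusted p = 2.63e-10). The level with lactate was also above that in hypoxia (0.46 ± 0.11, adjusted p = 0.000852), a call lost with upper-quartile scaling (0.20, adjusted p = 0.107). In the GENCODE 29 annotation 43.3% of its merged exon bases also belong to AC010733.2, a noncoding RNA on the same strand, which had 330 and 415 counts in the normoxic libraries, 558 and 513 in the hypoxic ones, 111 and 108 in those with oxamate, and 222 and 259 in those with both compounds. The values of REL are therefore uncertain to the extent that reads were shared out between both genes.

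The subunit makeup was then read within each library, as counts per kilobase of merged exons, each as a share of the sum over the 5 subunits. Such a share does not depend on library scaling, and it was described with no test. In normoxia RELA made up 44.1% ± 0.022 (SD, n = 2), NFKB1 23.6% ± 1.08 and NFKB2 23.5% ± 0.496 of the sum. In hypoxia NFKB2 was at 46.4% ± 0.0956, RELA at 38.1% ± 0.650 and NFKB1 at 7.61% ± 0.678. Which of NFKB2 and RELA was larger there depended on the gene length used, with 41.1% for NFKB2 and 44.1% for RELA by longest transcript, and 41.6% and 41.5% without length scaling. The excess of NFKB2 over NFKB1 in hypoxia stood under each of these lengths, but their near equality in normoxia did not, where NFKB2 was at 20.01% by longest transcript, and NFKB1 at 27.4% and NFKB2 at 19.5% without length scaling.

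With oxamate the share of NFKB2 was 20.7% ± 1.14, that of NFKB1 18.0% ± 0.246, and that of RELA 52.0% ± 0.261, its highest. With oxamate and lactate the shares were 44.4% ± 0.939 for RELA, 23.3% ± 0.0380 for NFKB1 and 22.3% ± 0.705 for NFKB2. Each of these 3 shares was nearer to its value in normoxia than to that in hypoxia, although the CPM of all 3 genes was above that of normoxia. RELB kept a share between 6.54% and 9.03% in the 8 libraries. REL was at 0.669% to 2.27%, the smallest share per kilobase in each library. Without length scaling the mean share of REL was above that of RELB in normoxia (4.35% and 3.98%) and with both compounds (4.94% and 4.48%).

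**Figure D3:**
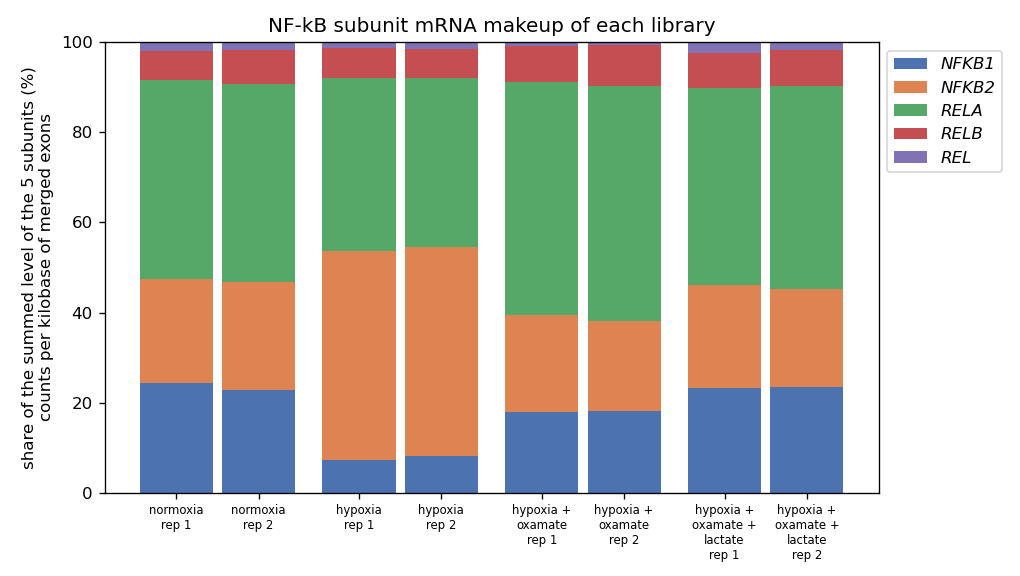
Share of each subunit in the summed level of the 5 subunits (vertical axis, percent, from counts per kilobase of merged exons), 1 stacked bar per library. In the 2 hypoxic libraries without a compound NFKB2 took 46.5% and 46.4% and NFKB1 7.13% and 8.09%, while in the other 6 bars NFKB2 took 19.9% to 23.8%.

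Among the genes grouped as feedback inhibitors, NFKBIA stood apart in the lactate group. It encodes IkB alpha, which binds RELA-containing dimers and is resynthesised after NF-kB activation, and it lies at chr14:35401511-35404749 on the minus strand. It was at 17.8 and 19.9 CPM in normoxia, 24.5 and 23.7 under hypoxia, 18.7 and 18.8 with oxamate, and 68.1 and 71.9 with oxamate and lactate. Only the 2 libraries with lactate exceeded 25 CPM, and those of normoxia and oxamate overlapped. NFKBIA rose slightly in hypoxia (0.35 ± 0.070, adjusted p = 0.000125) and fell by 0.36 ± 0.072 with oxamate (adjusted p = 9.47e-05). With lactate it rose 3.74-fold over oxamate alone (1.90 ± 0.066, adjusted p = 9.62e-17), to 2.90-fold the hypoxic level (adjusted p = 7.53e-16). Per kilobase of merged exons, the level with lactate was 29.5 ± 1.15 CPM (SD, n = 2), beside 25.1 ± 1.78 for RELA in the same group. In each other group NFKBIA lay below RELA. Without length scaling NFKBIA was below RELA with lactate too, at 52.3 and 49.96 counts per 100 RELA counts, so that order depends on gene length.

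TNFAIP3, at chr6:137867188-137883312 on the plus strand, encodes a ubiquitin-editing enzyme that ends signalling from tumour necrosis factor and Toll-like receptors. It was at 7.81 and 6.64 CPM in normoxia, 20.4 and 19.0 under hypoxia, 80.3 and 80.7 with oxamate, and 94.4 and 94.4 with oxamate and lactate. The groups formed an ascending series without overlap. TNFAIP3 rose 2.74-fold in hypoxia (1.45 ± 0.083, adjusted p = 4.47e-13) and 4.09-fold more with oxamate (2.03 ± 0.058, adjusted p = 1.06e-18). The further rise with lactate was 0.23 ± 0.049 (adjusted p = 0.000271), and it lost its call with upper-quartile scaling (0.04, adjusted p = 0.498) and without either oxamate library (0.13, adjusted p = 0.102, and 0.14, adjusted p = 0.0762). From normoxia to oxamate and lactate the difference was 13.1-fold (3.71 ± 0.068, adjusted p = 1.22e-21). Of all tested genes, 7.21% had a wider span between their lowest and highest group mean. This was the widest span of the 10 genes, the next being that of NFKBIZ at 5.14-fold.

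NFKBIZ, at chr3:101827991-101861022 on the plus strand, encodes a nuclear IkB-type protein that acts as a cofactor at a subset of NF-kB targets. It was at 3.68 and 2.91 CPM in normoxia, 2.14 and 2.60 under hypoxia, 8.01 and 8.46 with oxamate, and 11.2 and 13.2 with oxamate and lactate. Both oxamate groups stood above both groups without it, and no groups overlapped. NFKBIZ rose 3.47-fold with oxamate (1.80 ± 0.16, adjusted p = 8.71e-10) and 1.49-fold more with lactate (0.57 ± 0.13, adjusted p = 0.000738). Its lower level in hypoxia than in normoxia (-0.47 ± 0.18, adjusted p = 0.0237) lost its call with DESeq2 (-0.47, adjusted p = 0.0834), with upper-quartile scaling (-0.36, adjusted p = 0.0715), without the first normoxic library (-0.30, adjusted p = 0.228) and without the first hypoxic library (-0.33, adjusted p = 0.189).

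NFKBIE encodes IkB epsilon, another cytoplasmic inhibitor, and lies at chr6:44258166-44265788 on the minus strand. It was at 5.28 and 5.59 CPM in normoxia, 2.92 and 2.43 under hypoxia, 3.06 and 3.64 with oxamate, and 4.02 and 3.30 with oxamate and lactate. The normoxic libraries were the highest, and those with oxamate overlapped those with lactate. NFKBIE fell 2.03-fold in hypoxia (log2 -1.02 ± 0.18, adjusted p = 2.37e-05). The differences at the later steps were 0.32 ± 0.19 (adjusted p = 0.125) and 0.12 ± 0.19 (adjusted p = 0.602), neither of them called. Without the first oxamate library the former was called (0.55, adjusted p = 0.0328). The level with oxamate and lactate was still below normoxia (-0.58 ± 0.18, adjusted p = 0.00590), and NFKBIE was the only gene of the 10 lower there than in normoxia.

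BIRC3, at chr11:102317450-102339403 on the plus strand, encodes a ubiquitin ligase of the inhibitor of apoptosis family that acts at the tumour necrosis factor receptor and helps to degrade the kinase MAP3K14. It was at 3.24 and 3.64 CPM in normoxia, 10.8 and 11.4 under hypoxia, 2.75 and 1.86 with oxamate, and 9.91 and 10.1 with oxamate and lactate. The libraries formed a high pair of groups, hypoxia and lactate, and a low pair, normoxia and oxamate, with no library between 3.64 and 9.91 CPM. BIRC3 rose 3.22-fold in hypoxia (1.69 ± 0.14, adjusted p = 4.08e-10), fell 4.79-fold with oxamate (log2 -2.26 ± 0.16, adjusted p = 8.72e-12) and rose 4.33-fold with lactate (2.12 ± 0.16, adjusted p = 9.35e-11). Hypoxia and oxamate with lactate were not called different (-0.14 ± 0.13, adjusted p = 0.304), although with upper-quartile scaling that difference was -0.40 and called (adjusted p = 0.00674). Oxamate lay below normoxia (-0.57 ± 0.18, adjusted p = 0.00702). The oxamate libraries, on which the fall and the later rise both rest, held only 71 and 46 BIRC3 counts.

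The genes grouped here as feedback inhibitors were next set against RELA within each library, again free of library scaling and with no test. Such a ratio compares mRNA counts and does not measure inhibition. Per 100 RELA counts there were 21.8 and 25.0 NFKBIA counts in normoxia, 18.0 and 18.5 under hypoxia, 12.0 and 12.5 with oxamate, and 52.3 and 49.96 with oxamate and lactate. Relative to RELA, NFKBIA was lower in hypoxia than in normoxia, lower again with oxamate, and highest with lactate. The change in the log2 ratio was -0.36 in hypoxia (pooled SD 0.10), -0.58 with oxamate (pooled SD 0.037) and 2.06 with lactate (pooled SD 0.044).

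For TNFAIP3 there were 9.56 and 8.32 counts per 100 RELA counts in normoxia, 14.9 and 14.8 under hypoxia, 51.5 and 53.6 with oxamate, and 72.5 and 65.6 with oxamate and lactate. The largest step was that with oxamate, at 1.82 on the log2 scale (pooled SD 0.030). Relative to RELA, NFKBIE went from 6.47 and 7.02 in normoxia to between 1.89 and 3.08 in the 6 hypoxic libraries. BIRC3 ranged from 1.24 with oxamate to 8.92 in hypoxia. With oxamate the ratio to RELA was thus higher than in hypoxia for TNFAIP3 and lower for NFKBIA.

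**Figure D4:**
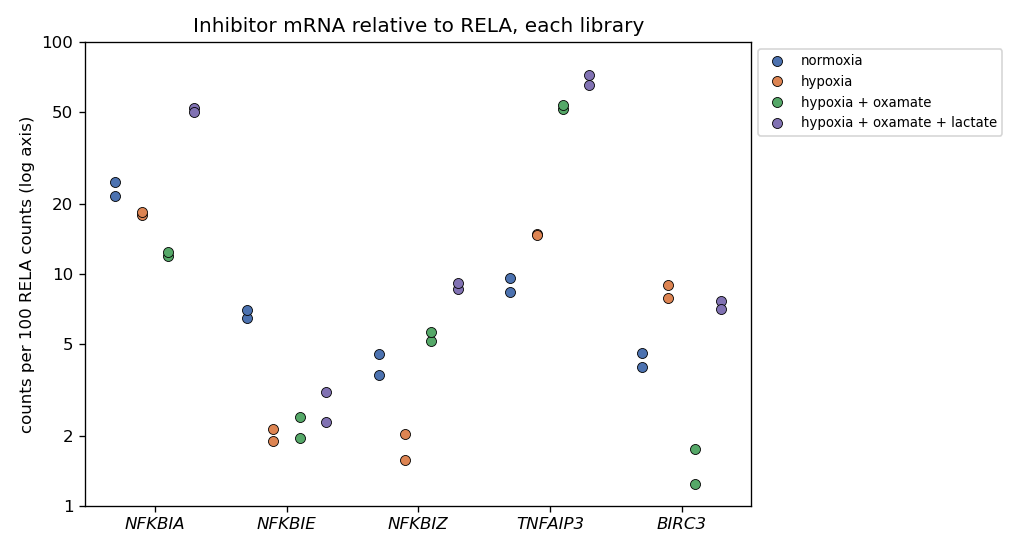
Counts of each gene grouped as a feedback inhibitor per 100 RELA counts (vertical log axis), 1 point per library, coloured by group. With oxamate, TNFAIP3 lay at 51.5 and 53.6 and NFKBIA at 12.0 and 12.5, whereas with lactate NFKBIA lay at 52.3 and 49.96.

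Across the 4 groups the 10 genes therefore showed several different shapes. Apart from RELA and RELB, the closest pair was REL with NFKBIA at a distance of 0.89 log2 units. NFKB1 with NFKBIZ and REL with BIRC3 followed, both at 0.97. Such a distance counts the size of the changes as well as their direction, so it does not rank likeness of direction alone. Among 9255 other genes whose log2 CPM averaged 3 or more, those nearest to NFKB1 by this distance were CTDP1 (0.056), ZC3H3 (0.065) and SCYL2 (0.066). Nearest to NFKBIA were ZNF697 (0.15), HSF2 (0.17) and NET1 (0.18). No gene came as close to TNFAIP3, for which the nearest were MT1E (0.44), MT2A (0.54) and PPP1R15A (0.55). MT1E and MT2A are metallothionein genes with near-identical copies, so their counts are uncertain. These distances rest on 4 group means and were not tested.

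The rest of the pathway was read from 5 lists holding 99 genes, of which 83 were tested. The 16 others, TNF, CXCL1, CCL20, TLR2 and TLR4 among them, had counts too low to test. In hypoxia 26 of the 83 rose and 38 fell, with a median of -0.17, and with upper-quartile scaling 30 rose and 30 fell. With oxamate 28 rose and 42 fell, with a median of -0.25. With lactate added 44 rose and 21 fell, with a median of 0.23, and with upper-quartile scaling these counts were 36 and 29. The backgrounds are those given above for all tested genes.

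Kinases and adaptors carry the signal from receptors to the IkB proteins, and 24 of 24 were tested. In hypoxia 8 rose and 13 fell (36.7% and 36.8% of all tested genes). With oxamate 11 rose and 12 fell (35.7% and 44.8%), and with lactate 13 rose and 6 fell (33.2% and 31.7%). TRADD, the adaptor of the tumour necrosis factor receptor, rose from 13.6 to 46.3 CPM in hypoxia (1.77 ± 0.073, adjusted p = 1.44e-15) and fell to 10.3 with oxamate (-2.17 ± 0.078, adjusted p = 7.32e-17). CHUK, the IkB kinase subunit that acts on the NFKB2 precursor, did the reverse, from 75.5 to 23.6 in hypoxia (-1.68 ± 0.055, adjusted p = 2.63e-17) and back to 76.1 with oxamate (1.69 ± 0.056, adjusted p = 1.50e-17). With lactate the largest changes were in TBK1, an IkB kinase relative, from 21.2 to 99.8 CPM (2.24 ± 0.060, adjusted p = 1.44e-18), and in the ubiquitin ligase TRAF6, from 23.5 to 77.0 (1.71 ± 0.057, adjusted p = 4.88e-17). TRADD shares 4.91% of its exon bases with FBXL8 on the opposite strand, whose mean count was 37.5% of its own. CHUK shares 0.534% with ERLIN1 on the same strand, whose mean count was 201% of its own. TBK1 shares 14.7% with AC135279.3 on the opposite strand, whose mean count was 0.210% of its own.

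Of 15 receptor genes 11 were tested, with 2 higher and 6 lower in hypoxia (36.7% and 36.8% of all tested genes). There were 3 higher and 5 lower with oxamate (35.7% and 44.8%), and 6 higher and 3 lower with lactate (33.2% and 31.7%). TNFRSF12A, the receptor for TWEAK, fell in hypoxia from 186 to 74.8 CPM (-1.31 ± 0.043), and IL1RAP, an accessory chain shared by interleukin receptors, rose from 39.3 to 95.3 (1.28 ± 0.049). With oxamate 3 receptors rose and 4 fell by 2-fold or more (14.3% and 27.5% of all tested genes). TNFRSF12A was among those that rose, to 243 CPM (1.70 ± 0.043). The largest falls were in Toll-like receptors of low count. TLR3 had 165 counts in the 2 hypoxic libraries and 30 with oxamate (-2.26 ± 0.29, adjusted p = 2.72e-07). TLR5 had 44 and 10 (-1.92 ± 0.60, adjusted p = 0.00585), and the call was lost without the second hypoxic library (-1.43, adjusted p = 0.116) and without the first oxamate library (-1.31, adjusted p = 0.111). With lactate TLR5 had 1 count, a ratio of 0.114 to oxamate after scaling (95% counting interval 0.00263 to 0.804). Its call with lactate (adjusted p = 0.0377) was lost with DESeq2 (adjusted p = 0.0866) and without either normoxic library or the second library of any other group. CD40 had 49 counts with oxamate and 16 with lactate (-1.40 ± 0.47, adjusted p = 0.0126), a call lost with DESeq2 (-1.47, adjusted p = 0.0529) and without the second oxamate and lactate library (-1.23, adjusted p = 0.0811).

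Other IkB-type proteins and brakes limit the pathway at several steps. Of 17 tested, 8 rose and 4 fell in hypoxia (36.7% and 36.8% of all tested genes). With oxamate 5 rose and 10 fell (35.7% and 44.8%), and with lactate 12 rose and 2 fell (33.2% and 31.7%). The medians were 0.13, -0.55 and 0.70. IER3, an immediate early gene reported to restrain NF-kB, rose from 68.1 to 926 CPM in hypoxia (3.76 ± 0.041, adjusted p = 1.59e-25). It fell to 41.8 with oxamate (-4.47 ± 0.044, adjusted p = 5.09e-26) and rose to 330 with lactate (2.98 ± 0.044, adjusted p = 1.68e-22). BIRC3, NFKB2, REL and NFKBIA were called in the same sequence of directions, which the shared libraries partly build in. For NFKB2 the lactate call was not kept under several alternatives, as given above. The share of all tested genes with this sequence was not computed, so the likeness cannot be read as particular to these genes. IER3 shares 26.5% of its exon bases with IER3-AS1 on the opposite strand, whose mean count was 0.0995% of its own. TNIP1, a binding partner of the TNFAIP3 protein, rose in hypoxia from 80.8 to 293 CPM (1.86 ± 0.037). NFKBIB, which encodes IkB beta, rose with oxamate from 16.9 to 65.1 CPM (1.94 ± 0.056). It shares 1.72% of its exon bases with SIRT2 on the opposite strand, whose mean count was 54.0% of its own. CYLD, a deubiquitinase, rose with lactate from 18.9 to 68.4 CPM (1.85 ± 0.059).

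The linear ubiquitin complex (LUBAC) and other ubiquitin machinery were tested for 12 of 12 genes. In hypoxia 2 rose and 7 fell (36.7% and 36.8% of all tested genes). RBCK1, a subunit of that complex, rose by 0.67 ± 0.045 and UBE2N, which builds ubiquitin chains, fell by 0.66 ± 0.040. UBE2N shares 39.5% of its exon bases with NUDT4 on the opposite strand, whose counts were 38.8% of its own, so its value is uncertain. With oxamate 5 rose and 4 fell (35.7% and 44.8% of all tested genes). SHARPIN, another subunit of the complex, rose from 18.7 to 38.4 CPM (1.04 ± 0.090). BTRC, which marks phosphorylated IkB for breakdown, fell from 26.7 to 8.34 (-1.67 ± 0.081). SHARPIN shares 1.44% of its exon bases with MAF1 on the opposite strand, whose mean count was 267% of its own. With lactate 6 rose and 4 fell (33.2% and 31.7% of all tested genes). BTRC rose to 20.5 CPM (2.46-fold, adjusted p = 9.22e-12) while its paralog FBXW11 rose from 37.8 to 152 (2.01 ± 0.046).

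Textbook target genes, of which 19 of 30 were tested, did not move as 1 group. In hypoxia 6 rose and 8 fell (36.7% and 36.8% of all tested genes). With oxamate 4 rose and 11 fell (35.7% and 44.8%), and with lactate 7 rose and 6 fell (33.2% and 31.7%). GADD45B, a stress response gene, rose in hypoxia from 17.3 to 53.1 CPM (1.62 ± 0.059), and CD83, a surface molecule of activated immune cells, fell from 11.3 to 4.30 (-1.40 ± 0.13). IL1A, encoding an interleukin released by damaged epithelial cells, fell with oxamate from 9.88 to 1.35 CPM (-2.87 ± 0.18, adjusted p = 1.31e-12) and rose with lactate to 7.37 (2.44 ± 0.19, adjusted p = 1.23e-10). LCN2, an iron-binding secreted protein, rose with oxamate from 2.24 to 6.77 CPM (1.59 ± 0.17). LIF, a secreted cytokine, rose with lactate from 8.20 to 32.4 CPM (1.99 ± 0.10).

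**Figure D5:**
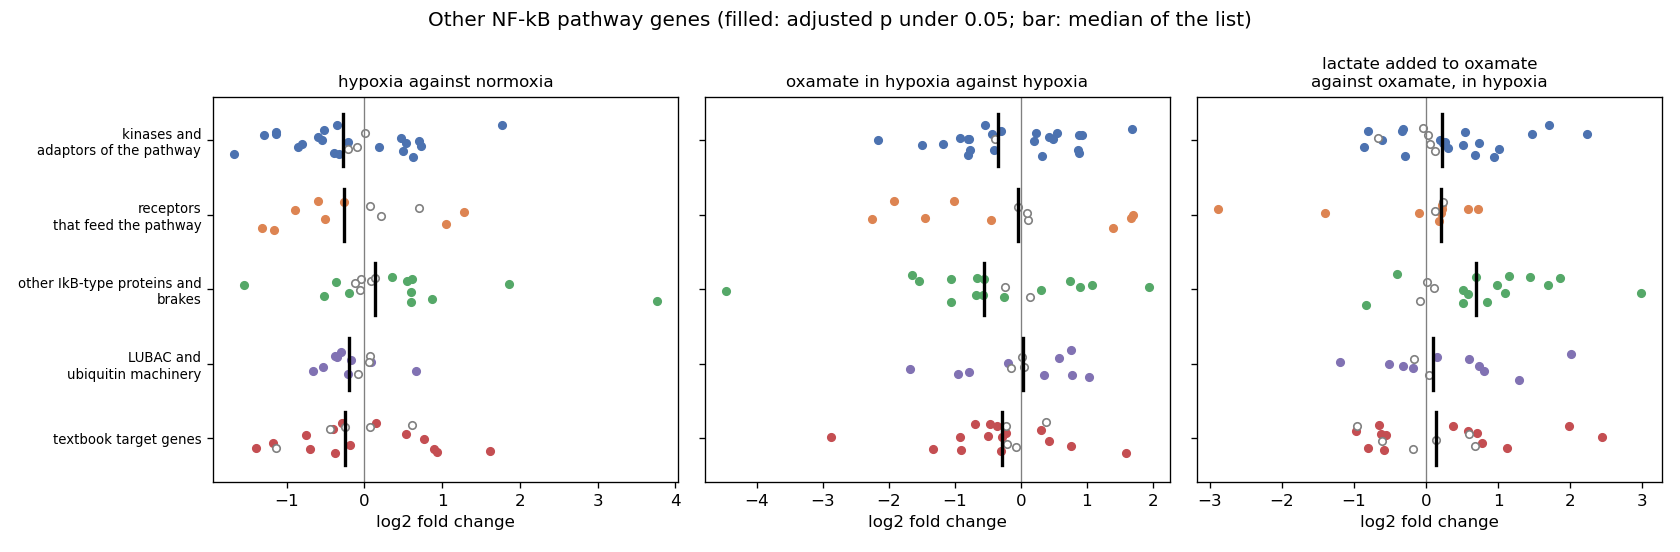
Log2 fold change (horizontal axes, each with its own range) of the 83 tested pathway genes in the 3 comparisons, by list; filled points are called, open points are not, and the black bar is the median of a list. The brakes lie lowest of the 5 lists with oxamate, at a median of -0.55, and highest with lactate, at 0.70.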

How the data were processed

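Poly(A) RNA of 8 KYSE150 libraries, 2 in each of 4 groups, was read from the count table deposited by the authors, which holds whole-number counts per gene that were not normalized. Per the submitters' processing notes, the builds were hg38 or GRCh38 and the tools included RSEM 1.3.3, STAR 2.7.8a and FastQC 0.11.9, with no role stated for any of them. If the counts came from RSEM they are rounded estimates, in which reads matching several genes are shared out. As for strand setting and annotation release, both were not given in the sources used here.

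Tests used edgeR 4.0.16 (R 4.3.3, limma 3.58.1): TMM scaling, filterByExpr with a minimum count of 10, robust dispersion, 4 group means over all 8 libraries (4 residual degrees of freedom), two-sided quasi-likelihood F tests and Benjamini-Hochberg adjustment over 15554 genes. The common biological coefficient of variation was 3.06%. Libraries of 1 group differed beyond counting noise in every group (chi-square per degree of freedom 1.85 to 4.83, highest with oxamate and lactate). Each standard error was taken as the absolute log2 fold change over the square root of F. Exon lengths and overlaps came from GENCODE 29 (GRCh38), which has a length for 98.0% of tested genes. Gene coordinates are from that annotation. Promoter windows were taken from RefSeq. The script was tested on simulated data.

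All 10 genes were named throughout. From each pathway list at most 2 called genes with the largest absolute log2 fold change were named per comparison. The 3 genes nearest in centred group means to NFKB1, NFKBIA and TNFAIP3 were also named. The oxamate value of TNFRSF12A was given besides. Members and lists were chosen with earlier results of these data known. Alternatives were RLE and upper-quartile scaling, no filter, a filter of 50 counts in 2 libraries, DESeq2 1.42.0, the replicate number as a block, fits of 2 groups alone and leaving out each library. A gene of low count is limited by counting error, and for 1 count the exact interval is given.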

Additional observations from a re-analysis of the deposited data

How the results depend on the processing

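Of the members' changes under the alternatives, 428 kept direction and call, 11 lost the call, 5 gained it and 6 turned direction; of those of the named pathway genes, 436 kept both and 10 lost the call. The cause was not tested. With lactate, the number of members lower was 2 under upper-quartile scaling and 0 to 1 when each library was left out. Lactate against oxamate turned for NFKB2 (-0.025 with upper-quartile scaling, -0.014 to 0.18 when each library was left out), NFKBIE (-0.070 with upper-quartile scaling, -0.10 to 0.27 when each was left out) and RELB (-0.18 to 0.025 when each was left out). In the order of levels, NFKBIA with oxamate against normoxia turned to 0.071 with RLE and 0.025 with upper-quartile scaling, and oxamate and lactate against hypoxia turned to -0.20 for RELA and -0.16 for RELB with upper-quartile scaling. Upper-quartile scaling moved the median of all genes to 0.12, -0.26 and -0.21 in the 3 comparisons. By longest transcript RELA's share of the subunits was 49.1% (normoxia), 44.1% (hypoxia), 57.1% (oxamate) and 49.5% (lactate), and without length scaling it was 44.7%, 41.5% and 54.1% in the first 3. Against the sum of the 5 subunits, NFKBIA changed by -0.46, -0.19 and 1.80 and TNFAIP3 by 0.63, 2.20 and 0.13. Replicate numbers did not pair the libraries (correlations of deviations -0.050 to 0.012); with the replicate block, the numbers of members higher and lower were as without it, namely 7 and 3 (hypoxia), 4 and 4 (oxamate) and 7 and 1 (lactate). With 2 libraries a group, a library left without its partner is assumed to vary like those of the other groups. Depth limits TLR5, CD40 and, among the members, NFKBIE, NFKBIZ and BIRC3, the last with 71 and 46 counts in the oxamate libraries.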
